A study of Mus musculus with 9 samples.

Results

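The 9 MAP kinase genes described here encode the ERK-type kinases Mapk3 (ERK1), Mapk6 (ERK3) and Mapk7 (ERK5), the JNK kinases Mapk8 (JNK1) and Mapk9 (JNK2), and the p38 kinases Mapk14 (p38α), Mapk11 (p38β), Mapk12 (p38γ) and Mapk13 (p38δ). They were chosen by symbol from the 34310 genes of the table. Each symbol matched 1 row, and all 9 were among the 15015 genes tested, those with a mean of at least 0.5 FPKM (fragments scaled to transcript length and library size) over the 9 libraries. RNA came from fresh mouse kidney, with 3 mice in each of 3 groups. The groups received saline, LPS (lipopolysaccharide, a bacterial endotoxin given to model sepsis), or LPS+Tβ4, in which thymosin β4, an actin-monomer-binding peptide, was added to LPS. No genotype, strain, sex, age, dose, route or time is given in the labels. Libraries held 53 to 62 M counts, and the counts behind a single member in a single library ran from 168 for Mapk11 to 12697 for Mapk6.

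MAP kinases are the last step of relays in which one kinase phosphorylates the next, and they carry signals from receptors such as the endotoxin receptor to transcription factors and other kinases. ERK1 mainly serves growth factor signals, the JNK kinases phosphorylate c-Jun, and p38α acts through MK2 on the stability of cytokine mRNAs. Their activity is set by phosphorylation of the activation loop, which RNA sequencing does not measure. In kidney disease, JNK and p38 signalling has been linked to tubular inflammation and cell death.

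Kidney markers were present in every library, and their level differed between the groups. The summed level of 6 proximal tubule markers ran from 8090 to 10800 CPM (counts scaled to library size with TMM factors) in saline, 698 to 2730 CPM in LPS and 1400 to 2430 CPM in LPS+Tβ4. Libraries also differed in transcripts of other tissues. The sum of 5 urothelial markers (Upk1a, Upk1b, Upk2, Upk3a and Upk3b, which line the renal pelvis and bladder) was 2.12, 86.5 and 74.1 CPM in saline replicates 1, 2 and 3, 54.8, 45.9 and 0.924 CPM in LPS, and 1.03, 0.754 and 65.5 CPM in LPS+Tβ4. This left 5 libraries rich and 4 poor in urothelial transcripts, split across all groups, and Upk2 and Upk3a had no count in LPS replicate 3 or in LPS+Tβ4 replicates 1 and 2. The sum of 8 neural markers was 258 to 311 CPM in LPS+Tβ4 against 28.9 to 36.2 CPM in saline and 9.81 to 43.4 CPM in LPS. Their part in the results below was not tested except where a value is given.

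In saline kidney Mapk14 was the most abundant of the 9 genes per length, at 24.7 ± 1.91 FPKM (mean ± SD, n = 3, as for all levels below). Mapk3 followed at 18.7 ± 2.47 FPKM, Mapk9 at 7.29 ± 0.788 FPKM and Mapk6 at 4.68 ± 0.412 FPKM. The ranges of each of these and of the next in order did not overlap. The other 5 were lower and closer together. Mapk13 stood at 2.72 ± 0.658 FPKM, Mapk8 at 2 ± 0.226, Mapk12 at 1.64 ± 0.487, Mapk7 at 1.39 ± 0.288 and Mapk11 at 1.24 ± 0.53 FPKM, and each overlapped its neighbour in this order. In LPS the order changed, with Mapk13 (26.9 ± 14.6 FPKM), Mapk3 (24.1 ± 7.9 FPKM) and Mapk6 (18.5 ± 9.16 FPKM) above Mapk14 (14.9 ± 3.13 FPKM). The ranges of these 4 neighbours overlapped in LPS. In LPS+Tβ4, Mapk3 (24.5 ± 6.22 FPKM) and Mapk14 (21.1 ± 2.49 FPKM) again headed the order, and their ranges overlapped.

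**Figure D1:**
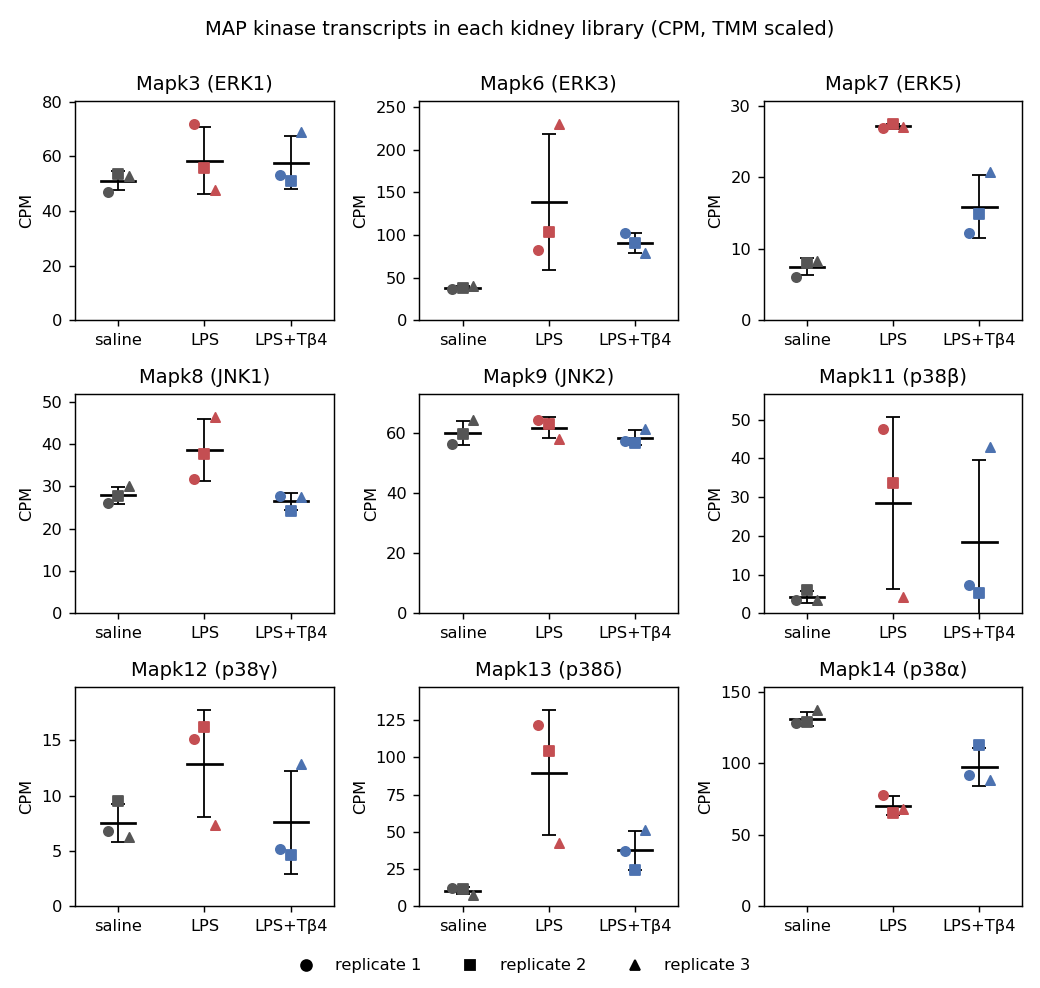
Level of each MAP kinase transcript in every library (vertical axis, CPM after TMM scaling, each panel on its own scale from 0) by group, with the mean as a line and the SD as a bar, cut at 0. The 3 LPS values of Mapk7 lie between 26.9 and 27.4 CPM, above those of the other groups, whereas Mapk11 has 2 high LPS libraries and 1 high LPS+Tβ4 library.

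The comparison of LPS with saline asked which MAP kinase transcripts responded to endotoxin. Of the 9 genes, Mapk6, Mapk7, Mapk8 and Mapk13 rose, Mapk14 fell, and Mapk3, Mapk9, Mapk11 and Mapk12 did not pass edgeR's quasi-likelihood test at an adjusted p of 0.05. The 5 called genes are 55.6% of the members, beside 43.1% of all genes tested, so the number of calls is close to that of genes in general. Genes called higher made up 44.4% of the members and 20.9% of all genes, and genes called lower 11.1% and 22.2%. At an unadjusted p under 0.05 there were 6 members, beside 51.4% of all genes. The groups did not overlap for the 5 called members, beside 54.3% of all genes. The median log2 change was 0.78 over the 9 members and 0.02 over all tested genes.

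Among the ERK-type genes, Mapk7 gave the tightest response. It encodes ERK5, a large MAP kinase activated by MEK5 that also carries a transcriptional activation domain and phosphorylates MEF2 factors. Its level was 6.11, 7.98 and 8.31 CPM in saline and 26.9, 27.4 and 27 CPM in LPS, and the groups did not overlap. The change was 1.86 ± 0.22 on the log2 scale (± SE, edgeR adjusted p = 0.00043), and it passed under all 22 alternatives run. An 89-base stretch of Mapk7 overlaps Mfap4 on the opposite strand, and the strand setting used for counting is not known here.

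Mapk6, which encodes ERK3, an atypical kinase that binds and activates MK5, rose by the same amount but less evenly. It stood at 36.6, 37.7 and 40 CPM in saline and 82, 104 and 230 CPM in LPS. Every LPS library was above every saline library, and LPS replicate 3 was more than the sum of the other two. The log2 change was 1.86 ± 0.35 (edgeR adjusted p = 0.0034), 1.29 without LPS replicate 3. It was 1.26 (adjusted p = 0.015) in the libraries rich in urothelial transcripts and 2.70 (adjusted p = 0.0026) in those poor in them, where saline and LPS have 1 library each, assumed to vary as the pair of LPS+Tβ4 libraries does. The split was made after the data were seen, and these limits hold for each value given by it. Processed pseudogenes lie within the Mapk6 span on the same strand.

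Mapk3, which encodes ERK1, the member most often read as a phosphoprotein in growth factor signalling, did not pass. Its values were 47.1, 53.5 and 52.9 CPM in saline and 71.7, 55.7 and 47.7 CPM in LPS, so that the groups overlapped. The log2 change was 0.19 ± 0.18 (edgeR adjusted p = 0.42).

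Of the JNK genes Mapk8 passed and Mapk9 did not, and the difference between their changes was not tested. Mapk8 (JNK1) was 26, 27.8 and 30 CPM in saline and 31.8, 37.7 and 46.3 CPM in LPS, without overlap. Its rise was small, 0.47 ± 0.16 on the log2 scale (edgeR adjusted p = 0.04), and 12 of 22 alternatives ended the call, among them leaving out any 1 of the saline mice, of LPS replicates 2 and 3, and of LPS+Tβ4 replicates 1 and 2 (adjusted p 0.055 to 0.11). Without LPS replicate 3 the change was 0.32. Processed pseudogenes overlap the Mapk8 span, over 384 bases on the same strand and 808 bases on the opposite strand. Mapk9 (JNK2) was 56.4, 59.9 and 64.4 CPM in saline and 64.6, 63 and 58 CPM in LPS, a change of 0.04 ± 0.11 (adjusted p = 0.79). In saline, Mapk8 made up 21.4%, 21.6% and 21.6% of the summed FPKM of the JNK pair. In LPS its share was 22.6%, 26.2% and 32.2%, above saline in each library. A share within a library does not depend on how libraries are scaled.

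Among the p38 genes Mapk14 fell and Mapk13 rose. Mapk14 encodes p38α, the widely expressed p38 kinase through which most p38 inhibitors act. It was 128, 129 and 137 CPM in saline and 77.8, 65.5 and 67.8 CPM in LPS, and every LPS library lay below every saline library. The log2 change was -0.90 ± 0.13 (edgeR adjusted p = 0.0011), with a range of -0.93 to -0.71 over 23 alternatives that all kept the call. In whole tissue, fewer cells of a type and less RNA per cell cannot be told apart. Proximal tubule markers were lower alongside Mapk14 in LPS (sums above), and their part in the fall of Mapk14 was not tested. A predicted coding gene of GENCODE overlaps 618 bases of Mapk14 on the same strand.

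Mapk13 encodes p38δ, a p38 kinase found mainly in epithelia and leukocytes. Its values were 12.1, 11.6 and 7.69 CPM in saline and 122, 104 and 42.4 CPM in LPS, so that the lowest LPS library was above the highest saline library. With a log2 change of 3.10 ± 0.44 (8.58-fold, edgeR adjusted p = 0.00094), it had the largest called rise of the 9 genes. The rise was 3.56 (adjusted p = 0.0064) in the libraries rich in urothelial transcripts and 1.86 (adjusted p = 0.014) in those poor in them, the latter from 1 saline and 1 LPS library. Sums of 5 neutrophil markers were 0.328 to 1.1 CPM in saline, 17.2 to 38.1 CPM in LPS and 18.2 to 56.4 CPM in LPS+Tβ4. In LPS replicates 1, 2 and 3 they were 17.2, 38.1 and 27.9 CPM. Their part in the rise of Mapk13 was not tested.

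Mapk11 and Mapk12 split the LPS group. Mapk11 encodes p38β, the closest relative of p38α. It was 3.39, 6.06 and 3.46 CPM in saline, and in LPS 47.5 and 33.7 CPM in replicates 1 and 2 but 4.22 CPM in replicate 3. LPS replicates 1 and 2 were rich in urothelial transcripts and replicate 3 was poor in them. Saline replicates 2 and 3 were also rich in them, with Mapk11 at 6.06 and 3.46 CPM. The change over all libraries was 2.73 ± 1.00 (edgeR adjusted p = 0.056) and did not pass. It passed under 6 of 23 alternatives, with 2.74 (adjusted p = 0.004) by DESeq2, 3.24 (adjusted p = 0.019) without LPS replicate 3 and 2.78 (adjusted p = 0.021) without LPS+Tβ4 replicate 3. It was 3.09 (adjusted p = 0.01) within the rich libraries and 0.37 (adjusted p = 0.5) within the poor ones, with 1 saline and 1 LPS library. The difference between these was not tested.

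Mapk12 encodes p38γ, known best from skeletal muscle. Its values followed the same split, 6.82, 9.5 and 6.29 CPM in saline and 15.1, 16.2 and 7.39 CPM in LPS. The change was 0.78 ± 0.45 (edgeR adjusted p = 0.2), 0.99 (adjusted p = 0.07) within the rich libraries and 0.17 (adjusted p = 0.72) within the poor ones. With a term for urothelial transcripts over all libraries it was 0.80 and passed (adjusted p = 0.043). Skeletal muscle markers were scarce, with sums of 0.471 to 5.36 CPM in LPS and 0.908 to 5.83 CPM in saline over 5 genes.

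**Figure D2:**
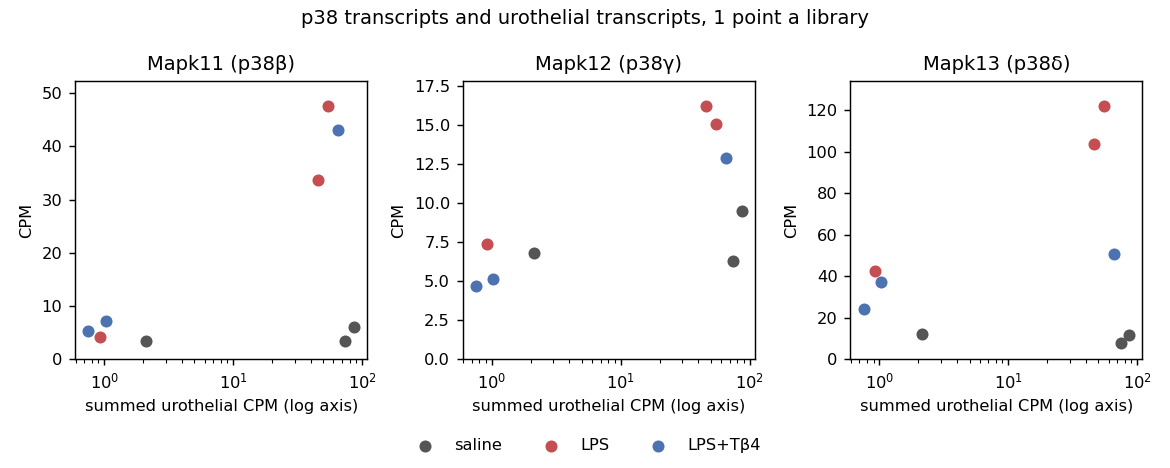
Level of Mapk11, Mapk12 and Mapk13 (vertical axes, CPM) against the summed level of 5 urothelial markers (horizontal axes, CPM, log axis), 1 point for each of the 9 libraries, coloured by group. Mapk11 is at 33.7 to 47.5 CPM in 3 endotoxin-treated libraries rich in urothelial transcripts and at 3.39 to 7.28 CPM in the other 6, whether these are rich or poor.

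The make-up of p38 transcripts within each library differed between the groups. Mapk14 made up 81.2%, 78.2% and 85.6% of the summed p38 FPKM in saline and 23.1%, 23.4% and 47.9% in LPS. The share of Mapk13 went from 10.6%, 9.68% and 6.67% in saline to 50.4%, 51.7% and 41.6% in LPS. These ranges did not overlap for either gene. Mapk13 had the larger share of the p38 pair in LPS replicates 1 and 2, and Mapk14 in LPS replicate 3. In LPS+Tβ4, Mapk14 made up 57.2%, 70.6% and 36.9% and Mapk13 32.2%, 21% and 29.7%. The Mapk13 shares lay between those of saline and LPS with no overlap, while the Mapk14 shares overlapped those of LPS. Mapk11 reached 21.4% and 18.3% in LPS replicates 1 and 2 and 27.3% in LPS+Tβ4 replicate 3, against 3.24% to 6.85% in the remaining libraries. Mapk12 stayed between 3.33% and 6.65% in all 9 libraries.

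**Figure D3:**
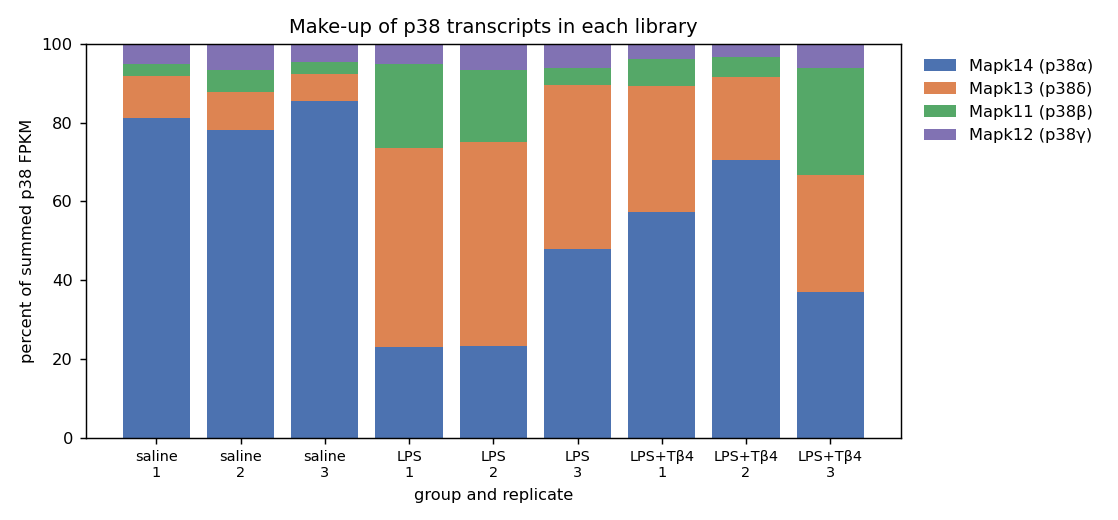
Make-up of p38 transcripts in each library, as the percent of the summed FPKM of Mapk14, Mapk13, Mapk11 and Mapk12 (vertical axis, stacked) by group and replicate. Mapk14 holds 78.2% to 85.6% in saline, and Mapk13 41.6% to 51.7% in LPS.

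The p38 genes lie in tandem pairs, and of the pair on chromosome 17 one gene fell and the other rose in LPS. In GRCm38 coordinates, Mapk14 (ENSMUSG00000053436) lies on chromosome 17 at 28691329 to 28748406 on the plus strand, and Mapk13 (ENSMUSG00000004864) follows it at 28769297 to 28780233 on the same strand, 20890 bases further on. Mapk12 (ENSMUSG00000022610) lies on chromosome 15 at 89130584 to 89140621 on the minus strand, and Mapk11 (ENSMUSG00000053137) starts 1864 bases beyond it and spans 89142486 to 89149628. The others are dispersed. Mapk3 (ENSMUSG00000063065) is on chromosome 7 at 126759601 to 126765819, Mapk6 (ENSMUSG00000042688) on chromosome 9 at 75369062 to 75409583, Mapk8 (ENSMUSG00000021936) on chromosome 14 at 33377898 to 33447158, and Mapk7 (ENSMUSG00000001034) and Mapk9 (ENSMUSG00000020366) on chromosome 11 at 61488812 to 61494296 and 49846751 to 49886421.

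Mapk14 and Mapk13 are neighbours that went in opposite directions, Mapk11 split the treated libraries, and Mapk7 was at 26.9 to 27.4 CPM in LPS. The promoters of these genes are shown. Each holds 250 bases before and 50 bases after a transcript start listed in RefSeq (GRCm38.p6), on the strand of the gene, 5′ to 3′. Capitals mark GC boxes (GGGCGG on either strand) and a match to the NF-kB motif. The windows are chr17:28691092-28691391 (plus strand) for Mapk14, chr17:28769067-28769366 (plus strand) for Mapk13, chr15:89149557-89149856 (minus strand) for Mapk11 and chr11:61494217-61494516 (minus strand) for Mapk7.
Mapk14: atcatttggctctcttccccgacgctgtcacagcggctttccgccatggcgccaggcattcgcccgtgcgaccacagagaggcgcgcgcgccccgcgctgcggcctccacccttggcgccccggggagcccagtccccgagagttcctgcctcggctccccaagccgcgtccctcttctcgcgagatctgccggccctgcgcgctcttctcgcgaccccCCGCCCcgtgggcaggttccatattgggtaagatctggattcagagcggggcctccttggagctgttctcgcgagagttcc
Mapk13: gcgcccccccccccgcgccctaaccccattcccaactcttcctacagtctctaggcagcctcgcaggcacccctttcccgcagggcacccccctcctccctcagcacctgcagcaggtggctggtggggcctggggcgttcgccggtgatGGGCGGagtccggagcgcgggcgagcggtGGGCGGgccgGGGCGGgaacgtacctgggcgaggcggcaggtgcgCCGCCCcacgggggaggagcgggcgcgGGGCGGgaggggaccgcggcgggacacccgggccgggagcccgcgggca
Mapk11: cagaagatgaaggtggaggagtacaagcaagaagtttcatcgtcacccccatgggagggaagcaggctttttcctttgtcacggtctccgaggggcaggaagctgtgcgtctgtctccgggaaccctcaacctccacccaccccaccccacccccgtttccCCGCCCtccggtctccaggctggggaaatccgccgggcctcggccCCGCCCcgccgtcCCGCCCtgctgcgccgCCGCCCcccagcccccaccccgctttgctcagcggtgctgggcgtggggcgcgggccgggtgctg
Mapk7: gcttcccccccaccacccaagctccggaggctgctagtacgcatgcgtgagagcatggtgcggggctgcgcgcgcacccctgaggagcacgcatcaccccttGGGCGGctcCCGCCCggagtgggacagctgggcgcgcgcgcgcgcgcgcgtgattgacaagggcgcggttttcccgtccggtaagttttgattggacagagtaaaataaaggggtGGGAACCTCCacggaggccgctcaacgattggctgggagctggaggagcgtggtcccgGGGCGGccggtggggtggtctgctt
GC boxes were the only motif of those searched that most of these windows held. Mapk13 had 5 matches, Mapk11 4, Mapk7 3 and Mapk14 1, and 35.9% of 27025 mouse promoters of this length hold at least 1. A promoter entry was found for 8 members, Mapk3 not among them, and all 8 windows searched held a GC box. Mapk6, Mapk7, Mapk8 and Mapk14 had 2 entries each, of which only the one nearest the deposited gene start was searched. The shares over all promoters used the first entry listed for each gene. The NF-kB motif was matched once, in Mapk7, as GGGAACCTCC, with its first base 33 bases before the start, and 8.18% of all promoters hold one. No match was found in the 8 windows for the AP-1 motif (TGANTCA, 7.93% of promoters), the cyclic AMP response element (TGACGTCA, 1.88%), the interferon-stimulated response element (ISRE, 3.49%) or the STAT motif (TTCNNNGAA, 8.47%), all searched on both strands. A GC box may overlap the NF-kB motif in principle, and none did in these windows. Such matches describe the letters only.

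Adding thymosin β4 to endotoxin was examined by setting LPS+Tβ4 beside LPS. None of the 9 members passed edgeR, beside 6.83% of all genes tested (4.5% higher and 2.33% lower). At an unadjusted p under 0.05 there were 4 (Mapk7, Mapk8 and Mapk13 lower, Mapk14 higher), beside 25.1% of all genes. DESeq2 called 4 of the 9 at an adjusted p under 0.05, 3 lower and 1 higher, beside 2442 of the 15015 genes tested. With limma on log2(FPKM + 1), 0 of the 9 were called, beside 1010 of these genes. The groups did not overlap for 3 members (Mapk7, Mapk8 and Mapk14), beside 26.3% of all genes. The median log2 difference was -0.61 over the members and -0.01 over all tested genes. This comparison shares the LPS libraries with the one before, and the values are set side by side for that reason only.

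Mapk14 was 91.9, 113 and 88.1 CPM in LPS+Tβ4, above each of the LPS libraries (65.5 to 77.8 CPM) and below each of the saline libraries. Its log2 difference from LPS was 0.47 ± 0.13 (edgeR adjusted p = 0.067). With a library left out it ran from 0.36 (edgeR adjusted p = 0.25, without LPS+Tβ4 replicate 2) to 0.54 (adjusted p = 0.025, without LPS replicate 1). Mapk7 was 12.2, 14.9 and 20.7 CPM in LPS+Tβ4, below each LPS library and above each saline library. The difference from LPS was -0.76 ± 0.22 (edgeR adjusted p = 0.069). It was -1.03 (adjusted p = 0.027) without LPS+Tβ4 replicate 3, the library of that group rich in urothelial transcripts, and -0.69 (adjusted p = 0.049) with a term for urothelial transcripts. In the rich libraries alone it was -0.39, with 1 LPS+Tβ4 library, and in the poor ones -1.03, with 1 LPS library. Without LPS+Tβ4 replicate 2 it was -0.72 (adjusted p = 0.24).

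Mapk8 was 27.8, 24.2 and 27.4 CPM in LPS+Tβ4, in the range of the saline libraries (26 to 30 CPM) or just under it, and below the LPS libraries. The difference from LPS was -0.55 ± 0.16 (edgeR adjusted p = 0.074). With a library left out it ran from -0.67 (edgeR adjusted p = 0.02, without LPS replicate 1) to -0.39 (adjusted p = 0.15, without LPS replicate 3). In the rich libraries it was -0.34, with 1 LPS+Tβ4 library, and in the poor ones -0.87, with 1 LPS library. Its share of JNK FPKM was 22.3%, 20.1% and 20.9%, below each LPS library. Mapk13 was 37.3, 24.2 and 51 CPM, which overlaps LPS through LPS replicate 3 (42.4 CPM). The difference was -1.26 ± 0.41 (edgeR adjusted p = 0.1). With a library left out it ran from -1.59 (edgeR adjusted p = 0.046, without LPS replicate 3) to -0.96 (adjusted p = 0.16, without LPS replicate 1). Within the rich and the poor libraries it was -1.15 and -0.50.

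The remaining members were further from the threshold in this comparison. Mapk6 was 103, 90.9 and 79.1 CPM in LPS+Tβ4, a difference of -0.61 ± 0.34 (edgeR adjusted p = 0.3), and -0.03 without LPS replicate 3, the library with the highest Mapk6. It was -0.23 within the rich libraries and -1.28 within the poor ones, where LPS replicate 3 is the only LPS library. Mapk11 was 7.28 and 5.34 CPM in LPS+Tβ4 replicates 1 and 2 and 43 CPM in replicate 3, the only library of that group rich in urothelial transcripts. The difference from LPS was -0.62 ± 0.94 (adjusted p = 0.73), 0.08 within the rich libraries and 0.55 within the poor ones. It was -2.20 without LPS+Tβ4 replicate 3, -1.13 without LPS replicate 3, -0.24 and -0.18 without LPS+Tβ4 replicates 1 and 2, and -0.01 without LPS replicate 1, so its size rests on single libraries. Mapk12 was 5.17, 4.67 and 12.9 CPM, a difference of -0.77 ± 0.45 (adjusted p = 0.33), and -1.42 (adjusted p = 0.067) without LPS+Tβ4 replicate 3. Mapk3 (53.2, 51 and 69 CPM) and Mapk9 (57.3, 56.8 and 61.5 CPM) differed from LPS by -0.02 ± 0.18 and -0.08 ± 0.11 (adjusted p = 0.97 and 0.69). The value of Mapk3 changed sign under 8 of 23 alternatives.

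**Figure D4:**
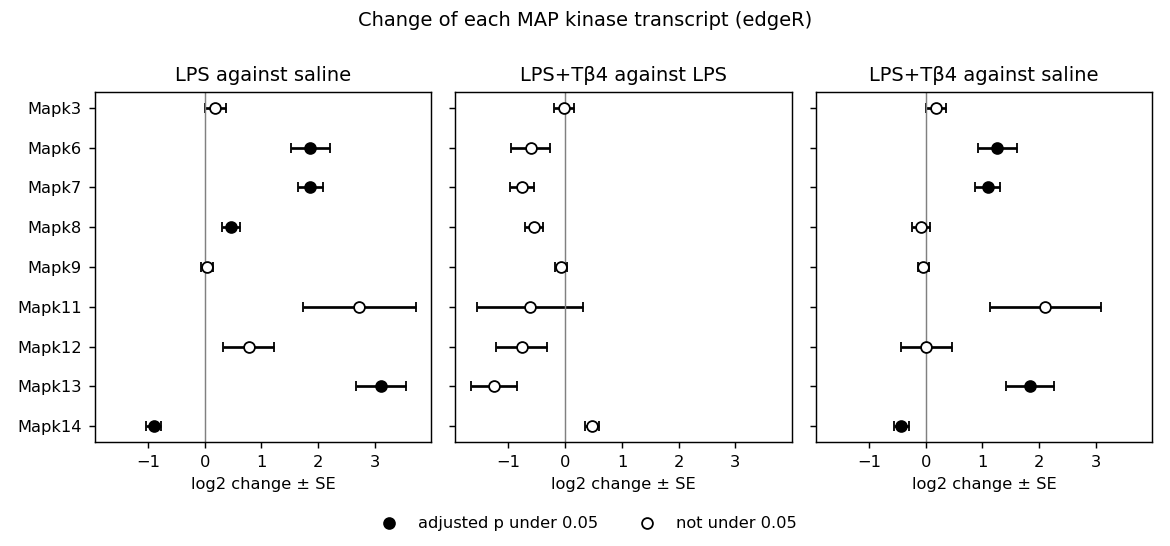
Change of each MAP kinase transcript in the 3 comparisons (horizontal axis, log2 change with its SE as a bar, from edgeR). Filled points have an adjusted p under 0.05: 5 in LPS against saline, 0 in LPS+Tβ4 against LPS and 4 in LPS+Tβ4 against saline.

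Against saline, LPS+Tβ4 kidneys had 3 members raised (Mapk6, Mapk7 and Mapk13) and Mapk14 lowered, 44.4% of the 9 beside 24.1% of all genes. Higher members were 33.3% beside 12.3% of all genes, and lower members 11.1% beside 11.8%. The same 4 members had an unadjusted p under 0.05, beside 36.7% of all genes, and groups that did not overlap, beside 50.9%. Over all genes the calls were 1852 higher and 1765 lower in edgeR and 2465 higher and 1327 lower in limma on log2(FPKM + 1). In LPS+Tβ4 against LPS they were 675 and 350 in edgeR and 737 and 209 in limma on log2(FPKM + 0.1). Mapk7 differed from saline by 1.09 ± 0.22 (edgeR adjusted p = 0.008), a call kept in all 22 alternatives. Mapk13 differed by 1.84 ± 0.42 (adjusted p = 0.015), and by 1.71 (adjusted p = 0.057) without saline replicate 3. For Mapk6 the change was 1.26 ± 0.34 (adjusted p = 0.03). Leaving out any saline library, or LPS+Tβ4 replicate 1 or 2, ended that call (adjusted p 0.066 to 0.091), with changes of 1.16 to 1.33.

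The lower level of Mapk14 was the least stable of these calls, at -0.43 ± 0.13 (edgeR adjusted p = 0.044). It was lost under 15 of 23 alternatives, with a change of -0.22 (adjusted p = 0.36) in limma on log2(FPKM + 1) and of -0.33 to -0.44 (adjusted p 0.06 to 0.17) when saline replicate 1, 2 or 3, LPS replicate 2, or LPS+Tβ4 replicate 1 or 3 was left out. On the CPM scale the 2 groups did not overlap, and on the FPKM scale they did. Mapk8, at -0.08 ± 0.16 (adjusted p = 0.76), and Mapk9, at -0.04 ± 0.11 (adjusted p = 0.81), did not pass. Mapk9 changed sign with the 100 most abundant genes left out of the scaling, and both changed sign in limma on log2(FPKM + 1). Mapk3 (0.17 ± 0.18, adjusted p = 0.52) and Mapk12 (0.01 ± 0.45, adjusted p = 0.99) did not pass either. Mapk11 was at 2.11 ± 0.98 (adjusted p = 0.16), 0.58 without LPS+Tβ4 replicate 3.

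Genes that act directly with the MAP kinases were read from 5 lists, 51 genes in all that could be tested. In LPS against saline 20 of them rose and 9 fell, beside 20.9% of all tested genes called higher and 22.2% called lower. The counts by list that follow are small and are read against the same shares. All 7 MAP2K genes, whose products phosphorylate the activation loop, were tested, with 3 higher and 1 lower (median log2 change 0.41). Map2k3, an activator of p38, rose from 46.1 ± 2.96 to 71.6 ± 3.44 CPM (0.63, edgeR adjusted p = 0.0032). Map2k7 and Map2k4, which activate JNK, rose by 0.63 and 0.53, and Map2k2 (MEK2), an activator of ERK1, fell by 0.59 on the log2 scale. Omitting saline replicate 2 or 3 ended the call of Map2k4, and omitting saline replicate 1, LPS replicate 2 or LPS replicate 3 that of Map2k2 (-0.34 without saline replicate 1).

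Downstream of the MAP kinases, the lists hold kinases and transcription factors. Of 9 tested kinases activated by MAP kinases, 2 rose and none fell (median 0.34), a share of higher genes near that of all genes. Mapkapk2, which encodes MK2, the main effector of p38α, rose from 110 ± 10.6 to 394 ± 181 CPM (1.85, edgeR adjusted p = 0.0025) while Mapk14 itself fell. Rps6ka4 (MSK2) rose by 1.05 (adjusted p = 0.026), a call that the omission of any saline library ended, and by 0.64 (adjusted p = 0.037) without LPS replicate 1. Of 13 nuclear substrates, 7 rose and 2 fell (median 0.72). Myc rose by 3.37, Jun, the main JNK substrate, by 2.26, Ddit3 (CHOP), a p38 substrate, by 2.23, and Mef2d, a substrate of ERK5 and p38, by 0.99 (adjusted p = 0.00028, 0.00042, 4e-04 and 9e-04).

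Scaffold genes went both ways, with 3 of 12 higher and 5 lower (median -0.26). Mapk8ip1 (JIP1), which holds JNK to its activators, fell from 36.9 ± 4.78 to 13.6 ± 3.48 CPM (-1.44, edgeR adjusted p = 0.0011). Lamtor2, of the late endosomal complex that anchors ERK signalling, fell by 0.83 on the log2 scale, whereas Iqgap1 and Ksr1, scaffolds of the ERK cascade, rose by 0.94 and 1.23. Of 10 phosphatases that remove the activating phosphates, 5 rose and 1 fell (median 0.83). Dusp5, which acts on ERK, rose by 3.37, Dusp2 by 2.34 and Dusp16, which acts on JNK, by 0.91, and Dusp9 fell from 8.16 ± 1.07 to 1.13 ± 0.367 CPM (-2.85, adjusted p = 0.00027).

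Between LPS+Tβ4 and LPS, 2 of the 51 passed edgeR, beside 6.83% of all genes. Mapk8ip1 rose from 13.6 ± 3.48 to 29.4 ± 4.39 CPM (1.11, adjusted p = 0.024), and the nuclear ERK substrate Elk4 fell from 84.8 ± 23.6 to 34 ± 6.35 CPM (-1.32, adjusted p = 0.023). Each call was ended by 8 of 23 alternatives, among them leaving out saline replicate 3, either of LPS replicates 2 and 3, and either of LPS+Tβ4 replicates 1 and 2. Neural marker sums were also higher in LPS+Tβ4 than in LPS (given above), and their part in the Mapk8ip1 difference was not tested. In saline, where these sums were 28.9 to 36.2 CPM, Mapk8ip1 was 36.9 ± 4.78 CPM. Mapk8ip2, another scaffold gene, was 0.543 ± 0.323 CPM in saline, 2.34 ± 3.11 in LPS and 10 ± 2.37 in LPS+Tβ4. It passed against saline (4.19, edgeR adjusted p = 0.019) but not against LPS (2.09, adjusted p = 0.2). No MAP2K, MAP kinase-activated kinase or phosphatase passed between LPS+Tβ4 and LPS. Their counts at an unadjusted p under 0.05 were 2, 1 and 3, of 7, 9 and 10 genes, beside 25.1% of all genes, and the list medians were -0.24, -0.09 and -0.62. DESeq2 called 5 of the 51, beside 2442 of all 15015 genes tested, and limma on log2(FPKM + 1) called 2, beside 1010.

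**Figure D5:**
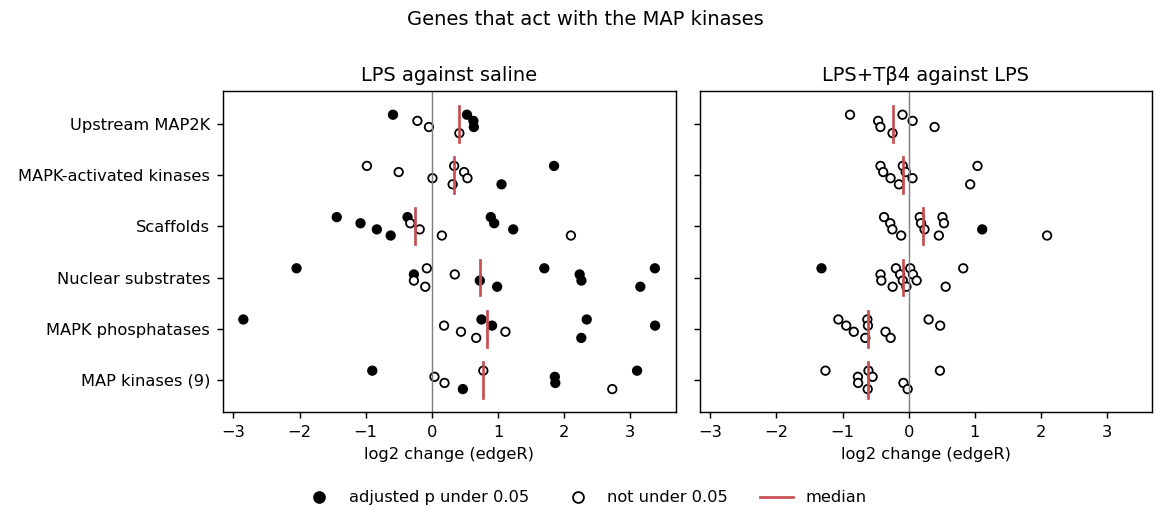
Log2 change (horizontal axis, edgeR) of each tested gene of 5 lists of genes that act with the MAP kinases, and of the 9 MAP kinases, in LPS against saline and LPS+Tβ4 against LPS. Filled points have an adjusted p under 0.05 and the line is the median of the list. In the first comparison 29 of the 51 list genes are filled, and in the second 2.

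Genes most like the most abundant member of each subfamily over the 9 libraries were found by Pearson's r of log2(CPM + 1). They were taken from 6632 genes with a mean of at least 5 FPKM and a symbol other than a clone or predicted-gene name. For Mapk14 these were Mthfd1 (r = 0.996), Mlec (0.992) and Pkhd1 (0.992), which changed by -2.43, -1.53 and -2.28 in LPS against saline, each more than Mapk14. For Mapk3 they were Lasp1 (0.975), Cyfip1 (0.958) and Agrn (0.954), and for Mapk9 Cpsf1 (0.932), Lamb3 (0.913) and Endod1 (0.9). In LPS against saline, Lasp1, Cyfip1 and Agrn changed by 0.44, 0.33 and 1.24 on the log2 scale, beside 0.19 for Mapk3. Cpsf1, Lamb3 and Endod1 changed by 0.03, 2.07 and 0.21, beside 0.04 for Mapk9. The libraries share their groups and their urothelial split, so the values of r describe these 9 libraries.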

How the data were processed

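Poly(A) RNA of 9 mouse kidneys was sequenced as strand-marked paired-end libraries, per the labels' protocols. Per the submitters' processing notes, GRCm38 was the build and the tools named, without roles, were HISAT2 2.2.1, StringTie 2.1.6, cutadapt 1.9, edgeR and DESeq2. Which program counted reads, with which strand setting and annotation, was not given in the sources used here. Raw counts per gene and FPKM values for 34310 genes were deposited by the authors. Groups came from sample titles; each library is 1 mouse.

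Counts were fitted with edgeR 4.0.16 (R 4.3.3; TMM, quasi-likelihood, all 9 libraries, a mean per group, no covariate), over 15015 genes with a mean of at least 0.5 FPKM. P-values were adjusted by the Benjamini-Hochberg method over these genes, with 0.05 as the threshold, and the SE is the change divided by the square root of F. Levels between genes used FPKM. On simulated counts with known changes the fit returned the fold changes put in and called few unchanged genes, but after adjustment it missed the smallest changes tried, and more of them where few genes changed, so a gene that did not pass may still have changed. Alternatives used DESeq2 1.42.0, limma 3.58.1, other filters and scalings, a replicate block, a urothelial term and each library left out. Fits within the 5 libraries with over 10 CPM of urothelial markers, and within the other 4, were added after the data were seen.

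The members, lists and tests were chosen with earlier results of these data known. Named beside the 9 members were up to 4 genes of each list with the smallest adjusted p in LPS against saline, up to 2 in LPS+Tβ4 against LPS, and the 3 genes most like the most abundant member of each subfamily. Mapk8ip2 was named besides, after the data were seen. Marker lists were also read for other cell types. Sums of thick ascending limb, distal and collecting duct, podocyte, endothelial, macrophage, T and B cell and erythroid markers were 2500 to 3870, 1820 to 2580, 369 to 564, 177 to 201, 19.4 to 37.3, 1.74 to 2.6 and 544 to 689 CPM in saline. In LPS they were 449 to 2880, 367 to 558, 129 to 255, 111 to 232, 34.1 to 54.7, 0.362 to 0.55 and 533 to 703 CPM. In LPS+Tβ4 they were 912 to 2560, 814 to 1450, 289 to 406, 92 to 207, 46.9 to 59.8, 0.273 to 0.98 and 181 to 261 CPM. Figures were drawn with matplotlib 3.10.9.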

Additional observations from a re-analysis of the deposited data

How the results depend on the processing

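For LPS against saline, the number of members called (5) became 3 with a minimum mean of 5 FPKM, under which 6 members could be tested, 7 with a urothelial term and 4 to 6 with a library left out. All genes called (6473) became 3754 under that minimum and 3730 in the libraries rich in urothelial transcripts, and the list genes called (29) became 16 in those. For LPS+Tβ4 against LPS the members called (0) became 4 by DESeq2, 1 with a urothelial term, 3 in the libraries poor in urothelial transcripts and 0 to 2 with a library left out (2 without LPS replicate 1, 1 without LPS replicate 3 or LPS+Tβ4 replicate 3). All genes called (1025) became 647 with no filter, 638 with a minimum of 5 FPKM, 2442 by DESeq2, 3 with only the 6 libraries compared, 5 with the replicate block, 0 in the rich libraries and 2558 in the poor ones, and 68 (without LPS+Tβ4 replicate 2) to 2672 (without LPS replicate 1) with a library left out. Each omission but that of LPS+Tβ4 replicate 3 moved this count by over 1.5 times. The list genes called (2) became 5 by DESeq2, 0 with only the 6 libraries compared, 0 with the replicate block, 0 in the rich libraries, 14 in the poor ones and 0 to 10 with a library left out. For LPS+Tβ4 against saline the members called (4) became 2 with the replicate block and 1 to 4 with a library left out. All genes called (3617) became 2268 with a minimum of 5 FPKM, 871 in the rich libraries and 2119 to 4544 with a library left out, and list genes called (17) became 11, 3 and 8 to 21 in these settings. The cause was not tested where fewer genes or libraries do not show it.

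Values of 5 members that had not passed the threshold changed sign, and none passed it with the other sign. For Mapk3 in LPS+Tβ4 against LPS it was 0.041 and 0.043 in limma (pseudocounts 1 and 0.1), 0.087 with the urothelial term, 0.12 and 0.10 in the rich and poor libraries, and -0.19 to 0.16 with a library left out. For Mapk11 it was 0.081 and 0.55 in the rich and poor libraries. In LPS+Tβ4 against saline, Mapk8 was at 0.088 and 0.12 in limma, 0.019 in the poor libraries and -0.11 to 0.021 with a library left out. Mapk9 was at 0.0015 with no filter, 0.00093 with the 100 most abundant genes left out of the scaling, 0.15 and 0.17 in limma, 0.016 with the urothelial term, 0.035 in the poor libraries and -0.050 to 0.054 with a library left out. Mapk12 was at -0.0013 with filterByExpr, -0.0031 with the replicate block, -0.45 in the poor libraries and -0.59 to 0.26 with a library left out. In limma on the FPKM values, where test and scale both differ, the median of all genes in that comparison went from -0.0034 to 0.14 and 0.19 (pseudocounts 1 and 0.1), and in LPS against saline from 0.02 to 0.11 and 0.15. Mapk6, Mapk7, Mapk13 and Mapk14 in LPS against saline and Mapk7 in LPS+Tβ4 against saline kept their direction and call in every alternative run.

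Libraries with the same replicate number were no more alike than others. The correlation of their deviations from the group means ran from -0.66 to 0.33 over 9 pairs, and from -0.48 to 0.52 over 18 pairs of other numbers. Of the 9 libraries, 1 correlated best with its own number. The urothelial split, which does not follow the replicate number, is part of these deviations, so they cannot show whether the mice were paired. With the replicate block, Mapk8 in LPS against saline (adjusted p = 0.059) and Mapk6 and Mapk14 in LPS+Tβ4 against saline (adjusted p = 0.053 and 0.1) were not called.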
